A study of Ovis aries with 18 samples.

Results

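HSPG2 encodes perlecan, a large heparan sulfate proteoglycan of basement membranes. Its protein core binds laminins, nidogens and collagen IV, and its heparan sulfate chains hold growth factors close to the cell surface. In adipose tissue a basement membrane surrounds each adipocyte and underlies the endothelium of the capillaries. The gene was chosen by its number of SNPs, the highest of any gene in the table, and its SNPs were taken as all those annotated to HSPG2. There were 61 of them among 24355 SNPs in 5810 genes. SNPs called heterozygous in 15 or more animals were kept apart, which left 9 SNPs in one set and 52 in the other. As the members were selected on measured values, their number and their genotype calls are given as a description only.

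The tissue was perirenal adipose tissue (PRAT) of 18 untreated, wild type, pure bred merino fetuses, 16 female and 2 male, taken at day 132 of gestation. The fetuses shared a sire, and all animals belonged to a single condition, so no groups were compared. The data were RNA-Seq reads carrying the reference or the alternate allele at each SNP of each animal, and genotypes had been called from the same reads. Reads over all SNPs totalled 2970824 to 5334585 per animal, with a mean of 4286291 ± 575991 (SD, n = 18). RS929, labelled female, was called heterozygous at 29.1% of the 244 SNPs on chromosome X, whereas the 15 other females ranged from 54.1% to 69.7% and the males had 25.4% and 32.4%. The library labelled RS929 therefore went against its label, and the totals of SNPs with AI and with heterogeneity are also given without it.

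The markers of the tissue were present. ADIPOQ, an adipocyte hormone, had a mean of 10812 ± 1707 reads per SNP (SD, n = 18 animals), and UCP1, the uncoupling protein of brown fat, had 10468 ± 3026. Of the adipocyte markers, 8 of 15 were in the table. None of 9 kidney markers and none of 7 skeletal muscle markers were in it, and 1 of 8 adrenal markers was, STAR, at 48.7 reads per SNP. A gene without a listed SNP has no value here, so absence from the table is not a level of 0.

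The HSPG2 SNPs lay on chromosome 2 of Oar v3.1 between positions 243785114 and 243853008. The authors' annotation gave 48 as synonymous, 12 as missense and 1 as a synonymous variant in a splice region, and none lay in a UTR. RefSeq lists 6 transcripts for the gene, in the assembly ARS-UI_Ramb_v3.0, from which no coordinates were taken. Neighbouring SNPs were 1 to 16492 bp apart, with a median of 354 bp, so some were covered by the same reads and are not independent.

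Perlecan transcripts were abundant. The mean number of reads at an HSPG2 SNP was 219 per animal, more than in 86.6% of genes, and the median gene had 63.0. This measure counts reads over single positions and does not grow with the length of a transcript. HSPG2 had 3115 ± 550 reads per 1000000 SNP reads (SD, n = 18), from 2162 in RS905 through a median of 3043 to 4197 in RS969. The next highest were RS919 at 3945 and RS953 at 3841, and the next lowest RS920 at 2430 and RS937 at 2439. The males, RS903 at 3321 and RS918 at 2950, lay within the range of the females. Each animal was 1 library, so neighbours in this order cannot be separated by a replicate error. Depth differed along the gene, with a mean of 171 reads at the first 20 SNPs and 268 at the last 20. Across the 61 SNPs the Spearman correlation of depth with position was 0.632, a description over SNPs of the same libraries. The deepest SNP was 243839285, with 428 ± 101 reads per animal, and 243838512 was the shallowest of all, with 50.

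Allelic imbalance (AI) is a departure of the 2 alleles of heterozygous animals from an equal share of reads. It was tested with a Poisson likelihood ratio test on summed reads, with Benjamini-Hochberg adjustment over all tested SNPs of the table. Of the 60 HSPG2 SNPs that could be tested, 36 showed AI at an adjusted P-value under 0.05, which is 60%, compared with 38.0% of all tested SNPs. At each of the 36 the reference allele was the higher one. Over all tested SNPs, 28.9% had AI with the reference allele higher and 9.01% with the alternate allele higher. No HSPG2 SNP had AI toward the alternate allele by this test, by the moderated quasi-binomial F test or at an unadjusted P-value under 0.05. When any animal with 10 or more reads of each allele was counted, whatever its call, 1 SNP had it, 243852567. Without RS929, 35 SNPs showed AI.

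The number of SNPs with AI depended on how the spread between animals was treated. With a moderated quasi-binomial F test (limma), in which the animals are the replicates, 25 SNPs passed, each of them among the 36, compared with 24.5% of SNPs over the table. HSPG2 was also deeper than most genes, and the test calls more SNPs at higher depth. When 5 or more heterozygous animals had to hold 30 or more reads of both alleles, 62.1% of HSPG2 SNPs and 48.3% of the table showed AI. The part of depth in the remaining difference was not tested.

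**Figure D1:**
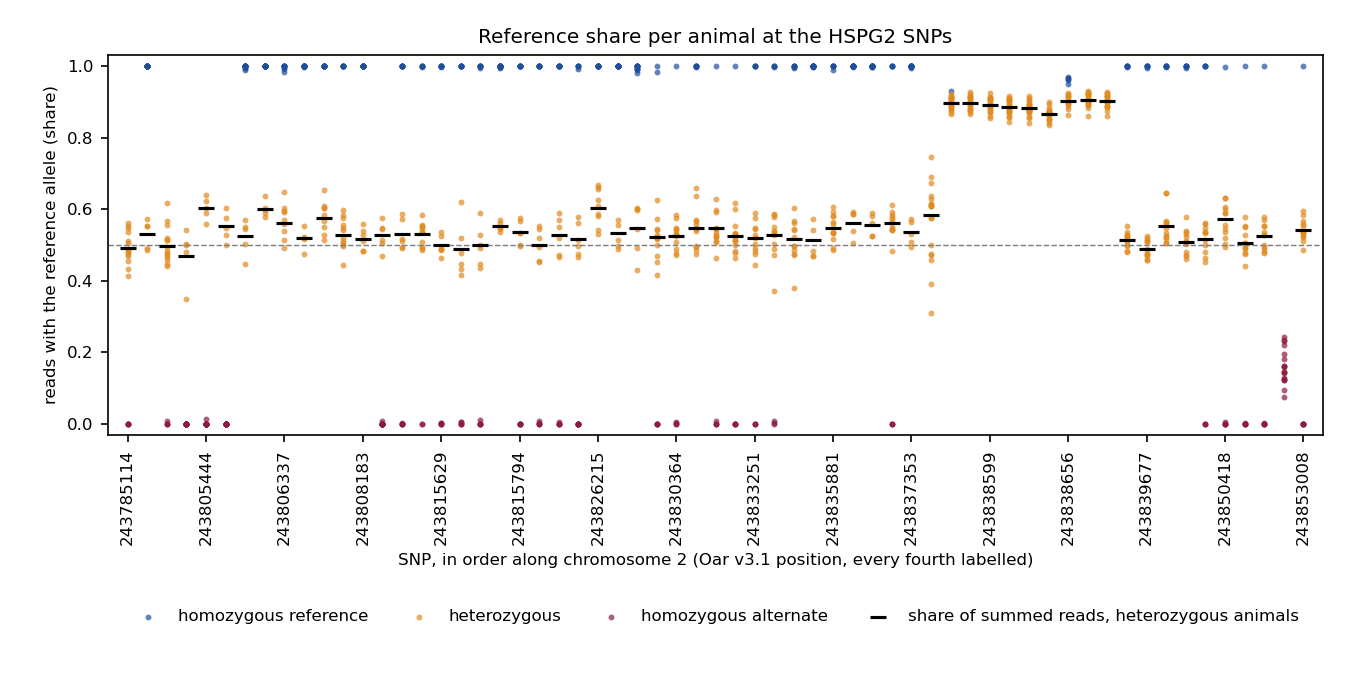
Share of reads with the reference allele (vertical axis) in each of the 18 animals at the 61 HSPG2 SNPs in order of position (horizontal axis, not to scale), coloured by genotype call, with bars for the share of summed reads of heterozygous animals. Most heterozygous values lie near 0.5, whereas 9 neighbouring SNPs lie between 0.867 and 0.906 and homozygous animals lie close to 0 or 1 at the other SNPs, apart from 243852567.

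At 11 SNPs every animal held both alleles, here taken as at least 2% of reads from the rarer allele in each of the 18 animals, a rule set after the data had been seen. At the remaining 50 SNPs animals called homozygous had almost no reads of the other allele. Among 464 homozygous calls at these 50 SNPs, 407 had none, the highest count was 4 reads, and 0.0713% of 96709 reads were of the other allele. All 9 SNPs kept apart were among the 11, together with 243838656, called heterozygous in 13 animals, and 243852567, called heterozygous in none. The overlap follows in large part from the calls, since 8 of the 9 were called heterozygous in all 18 animals. The same rule was met by 1394 SNPs of all genes, which is 5.72%, and among SNPs heterozygous in 15 or more animals 44.7% did. Transversions made up 7 of the 11 SNPs and 7 of the 50, compared with 56.6% and 19.7% of SNPs with and without both alleles in every animal over the table.

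The minimum did not divide the shares cleanly, as 243838656, below it, had 0.902 and 243838512, kept apart, had 0.583. The SNP with the fewest heterozygous animals among those kept apart was 243838590, with 17 animals and a reference share of 0.897. The SNPs with the most heterozygous animals below the minimum were 243785114 and 243802408, with 14 animals each and reference shares of 0.491 and 0.497. The SNPs kept apart had a median reference share of 0.892, compared with 0.543 for SNPs of this class over the table. The others had a median of 0.528, compared with 0.517.

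A block of 9 SNPs within 70 bp, from 243838590 to 243838659, held the highest reference shares of the gene. By the authors' annotation, 2 of the 9 were missense and 7 synonymous. At the missense SNP 243838658 (reference G, alternate A), the reference share was lowest in RS918 at 0.861, had a median of 0.905 and was highest in RS926 at 0.929, so every animal lay above 0.86. At the other missense SNP, 243838590 (reference A, alternate C), the 17 heterozygous animals ranged from 0.866 to 0.922, with a mean of 0.897 ± 0.0172 (SD, n = 17). The synonymous SNPs ranged from a summed share of 0.867 at 243838653 to 0.902 at 243838659. The likelihood ratio statistics of the 9 SNPs lay between 2693 and 3966. At 243838653 and at the 6 other block SNPs with 18 heterozygous animals, each of the 18 animals lay above an equal share. The block was singled out with its shares known, so no test of the animals is given. Its SNPs lie within 70 bp and share reads, so they do not count as separate results.

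Averaged over the block, the animals lay close together. The mean percentage of alternate reads over the 9 SNPs was 10.6% ± 1.33 (SD, n = 18), from 7.53% in RS917 through a median of 10.5% to 12.6% in RS920. Among animals called heterozygous no SNP of the block had heterogeneity, a test that leaves out the 5 animals called homozygous at 243838656 and RS917 at 243838590. Their dispersion (counting error alone gives 1) ranged from 0.759 at 243838653 to 1.19 at 243838614, and was 1.06 at 243838658. Of 162 combinations of animal and SNP in the block, 156 were called heterozygous, 6 homozygous for the reference allele and 0 homozygous for the alternate allele. Alternate reads were nearly equal at some adjoining SNPs of an animal. Between 243838590 and 243838593 the alternate counts were equal in 13 of 18 animals and differed by at most 2 reads in the others. Distances among 8 of the 9 SNPs were multiples of 3 bp, and 5 of the 9 were transversions.

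RS926 was called homozygous at all 50 of the remaining SNPs. At the 11 SNPs, chosen because every animal holds both alleles, it was called heterozygous at 10, and the other animals at 8 to 10. Its mean alternate percentage over the block was 8.67%, within the range of the other animals.

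**Figure D2:**
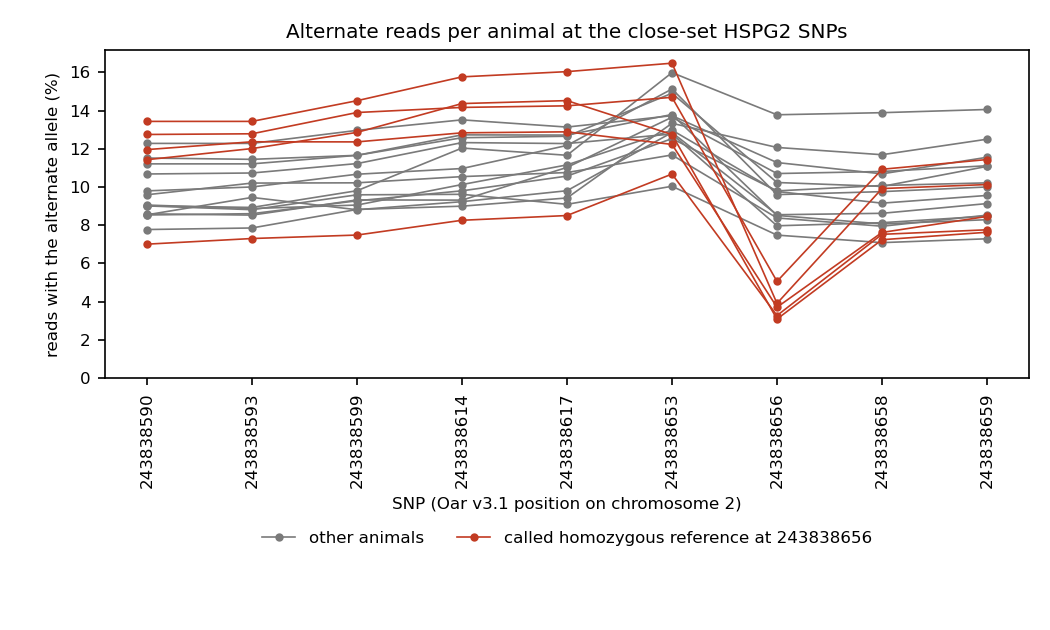
Percentage of reads with the alternate allele (vertical axis) at the 9 block SNPs (horizontal axis, in order but not to scale), with 1 line per animal and the 5 animals called homozygous reference at 243838656 in red. The 5 animals lie at 3.08% to 5.06% at that SNP and the 13 others at 7.48% to 13.8%, whereas at 243838658 the same sets overlap.

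One SNP of the block, 243838656 (reference T, alternate C), set 5 animals apart. RS917, RS920, RS929, RS953 and RS969 were called homozygous for the reference allele there, with 8 to 22 alternate reads each. Their alternate count was 0.417 to 0.5 of the count at 243838658, which lies 2 bp away, whereas in the 13 animals called heterozygous the ratio was 0.974 to 1.07. The same 5 animals, and no others, were heterozygous at 9 further HSPG2 SNPs between 243804112 and 243837353. Outside HSPG2, 4 SNPs of the table had exactly these heterozygotes, 3 of them also on chromosome 2. This set of animals was noticed after the values were seen and was not tested.

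The 2 other SNPs with both alleles in every animal lay outside the block. At 243838512 (reference A, alternate C), the splice region SNP, all 18 animals were called heterozygous at 23 to 78 reads. The reference share was lowest in RS943 at 0.310, had a median of 0.608 and was highest in RS947 at 0.745, with 12 animals above an equal share, 5 below and RS917 at exactly 0.5. The mean was 0.566 ± 0.110 (SD, n = 18; sign-flip permutation test, two-sided and unadjusted, p = 0.0230). It was the only SNP kept apart with heterogeneity between animals (Pearson chi-square, adjusted p = 0.0491). At the depth of 23 reads an equal share has a 95% Wilson interval from 0.311 to 0.689, which covers counting error only, and at 219 reads it runs from 0.434 to 0.566. At 243852567 (reference C, alternate G), annotated as missense, all 18 animals were called homozygous for the alternate allele, so it was not tested among heterozygous animals.

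At the 50 remaining SNPs the shares lay close to 0.5. The median reference share was 0.527, the range was 0.468 to 0.603, and 47 of the 50 were less than 0.1 away from equality. Of these shares, 44 favoured the reference allele and 5 the alternate allele, and 243815629 had 630 reads of each. Over the table, 14970 of 22908 tested SNPs of this kind favoured the reference allele and 7765 the alternate allele. The 50 SNPs fell into 14 patterns of genotype calls, so they are not independent. AI was found at 26 of the 50, which is 52%, compared with 35.0% of SNPs of this kind over the table. With the moderated quasi-binomial F test 15 of the 50 passed, compared with 24.5% of all tested SNPs. With the table's own median share of 0.519 as the null, 17 of the 50 showed AI, compared with 34.6% of all tested SNPs. Over the whole gene it was 27 SNPs, 24 above this null and 3 below. The lean toward the reference allele was seen whichever allele was more common in these animals. At the 35 SNPs with the reference allele on most of the 36 chromosomes the median share was 0.530, and at the 15 with the alternate allele on most it was 0.526.

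Of the 9 missense SNPs among these 50, 4 showed AI. At 243850418 (reference A, alternate G) the 12 heterozygous animals ranged from 0.494 in RS937 through a median of 0.572 to 0.632 in RS919, and 11 of them were above an equal share. The mean was 0.567 ± 0.0479 (SD, n = 12; sign-flip permutation test, two-sided and unadjusted, p = 0.00142), and the adjusted P-value of the likelihood ratio test was 4.67e-15. That test takes the animals as equal, and they were heterogeneous at this SNP (dispersion 2.54, Pearson chi-square, adjusted p = 0.0268). At 243835881 (reference C, alternate T) the mean was 0.548 ± 0.0388 (SD, n = 12; sign-flip permutation test, unadjusted p = 0.00228), with 10 of 12 animals above an equal share. At 243815023 (reference G, alternate A) it was 0.531 ± 0.0321 (SD, n = 11; sign-flip permutation test, unadjusted p = 0.0138), with 8 of 11 above.

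The fourth missense SNP with AI was 243836302 (reference G, alternate A), where all 5 heterozygous animals were above an equal share, between 0.525 and 0.588. With 5 animals the exact sign-flip test cannot go below p = 0.0625, the value it gave. The other 5 did not pass the likelihood ratio test. Their summed shares were 0.491 at 243785114, 0.468 at 243804112, 0.524 at 243806251, 0.520 at 243806339 and 0.506 at 243851651. The sign-flip test, two-sided and unadjusted, gave p = 0.583, 0.75, 0.4375, 0.3125 and 0.538 in the same order. At 243804112 (reference G, alternate C) RS953 had 0.349 and the 4 other heterozygous animals had 0.479 to 0.543. Of the synonymous SNPs 22 of 41 showed AI, and their median share was 0.528, beside 0.524 for the 9 missense SNPs. The difference was not tested.

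The SNPs farthest from an equal share, among the 50, were selected on that distance and are given without a test of the animals. At 243826215 (reference C, alternate T) the 9 heterozygous animals ranged from 0.531 in RS919 through a median of 0.609 to 0.669 in RS918. At 243805444 (reference T, alternate C) the 5 heterozygous animals lay between 0.559 and 0.640, with a summed share of 0.603. At 243806334 (reference C, alternate T) they lay between 0.579 and 0.638, and at 243806340 (reference G, alternate A) the 9 animals lay between 0.513 and 0.655. In all of these SNPs every heterozygous animal was above an equal share. At the opposite end, the SNPs nearest to an equal share were 243815629 and 243815734, with summed shares of 0.5 and 0.501.

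Some of the SNPs lay close together. Within 7 bp lay 243806334, 243806337, 243806339 and 243806340. At 243806337 the 5 animals heterozygous at 3 of these SNPs had shares of 0.569 to 0.647, and the 4 animals heterozygous at 2 of them had 0.492 to 0.557. At 243806340 the same animals had 0.583 to 0.655 and 0.513 to 0.568. The 5 animals heterozygous at 243806339 alone had 0.475 to 0.554 there. Another close set, 243822159, 243822171 and 243822204, had 6 animals heterozygous at all 3 SNPs and summed shares of 0.501, 0.527 and 0.515. Over HSPG2 SNPs without both alleles in every animal, the median share of single animals was 0.528 where no further heterozygous SNP lay within 50 bp, 0.529 where 1 did and 0.571 where 2 or more did, the last from 33 values at 6 SNPs of these 2 sets. Over such SNPs of all genes the medians were 0.518, 0.518 and 0.536. The 0.571 of HSPG2 pooled 2 unlike sets. The 5 animals heterozygous at 3 SNPs of the first set had mean shares of 0.602, 0.601 and 0.611 at these SNPs. The second set had the lower summed shares given above. The split followed the genotype calls and was made after the values had been seen.

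**Figure D3:**
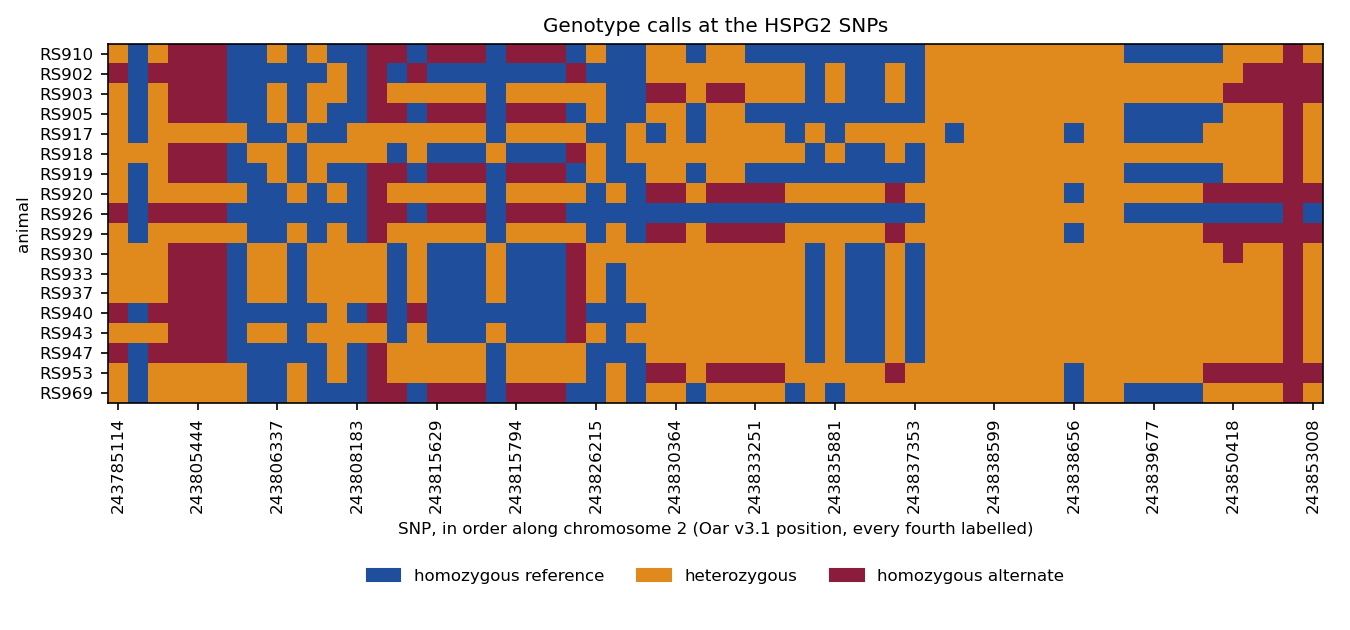
Genotype calls of the 18 animals (vertical axis) at the 61 HSPG2 SNPs in order of position (horizontal axis, not to scale). Blocks of equal colour mark SNPs that share 1 of 14 patterns of calls, the column of heterozygous calls between 243838512 and 243838659 is interrupted by 6 homozygous calls, and RS926 has no heterozygous call elsewhere.

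The genotypes fell into few patterns. When calls with the alleles exchanged were counted as equal, the 50 SNPs showed 14 patterns over the 18 animals, and 46 of the SNPs shared their pattern with at least 1 other. RS918, RS933, RS937 and RS943 had identical calls at all 50, as did RS910, RS905 and RS919, and RS920, RS929 and RS953. The most frequent pattern held 9 SNPs over 33241 bp, with RS917, RS920, RS929, RS953 and RS969 heterozygous and the 13 other animals homozygous for the same chromosome type.

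In this pattern the homozygous animals carried the alternate allele at 3 of its SNPs and the reference allele at 6. The mean reference share was 0.541 at the 3 SNPs, which had 0.468, 0.603 and 0.552, and 0.535 at the 6. When reads were instead assigned to 1 chromosome type across all 9 SNPs, its mean share was 0.492 ± 0.0103 (SD, n = 5), between 0.480 and 0.504. A pattern of 8 SNPs over 13496 bp, heterozygous in 6 animals, had 7 SNPs in one orientation and 1 in the other, with mean reference shares of 0.512 and 0.515. A pattern of 3 SNPs, also in 6 animals, had 0.532 in one orientation and 0.527 in the other. The remaining patterns had a single orientation. No difference between orientations was tested.

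Pearson chi-square tests with adjusted P-values below 0.05 showed heterogeneity between animals at 7 of 60 SNPs (11.7%), compared with 15.4% of the table, and at 8 SNPs without RS929. The median dispersion was 1.25, beside 1.41 over the table. The highest dispersion, 4.03, was at 243833308 (adjusted p = 0.000307), where RS943 had a reference share of 0.371 (95% Wilson interval 0.309 to 0.438) and the 10 other heterozygous animals had 0.473 to 0.588. RS943 was also the lowest at 243833335, at 0.380. At 243842728 RS947 and RS902 were highest, at 0.646 and 0.644, and at 243830665 RS940 and RS947 were, at 0.659 and 0.638. Without RS947 the number of SNPs with heterogeneity was 3, and without RS943 it was 4. In each of the 17 animals with heterozygous calls among the 50 SNPs, the median reference share over these SNPs was above 0.5, from 0.512 in RS943 to 0.550 in RS902. The median share over all tested SNPs of the table was also above 0.5, at 0.519.

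The genes with the most SNPs after HSPG2 were ALDH5A1, a mitochondrial dehydrogenase of GABA breakdown, with 60, and OSBPL8, an oxysterol-binding protein, with 56. In ALDH5A1 36 of 60 SNPs showed AI, which is 60% as in HSPG2, beside 38.0% of all tested SNPs, with the reference allele higher at 30 and the alternate allele at 6. Heterogeneity was found at 33 of the 60 (55%, beside 15.4% of the table). In OSBPL8 9 of 56 SNPs showed AI (16.1%), each with the reference allele higher, and 7 had heterogeneity (12.5%). Neither had a SNP with both alleles in every animal. The genes with the most SNPs heterozygous in 15 or more animals were OAS2 with 34, TUBB2A with 22, AFAP1L1 with 15 and ARHGAP35 and CCBL1 with 14 each. The reference share of these SNPs had a median of 0.748 in OAS2, 0.656 in TUBB2A and 0.846 in CCBL1, but 0.529 in AFAP1L1 and 0.503 in ARHGAP35, beside 0.892 in HSPG2. Every animal held both alleles at 40 of 41 SNPs of OAS2, 21 of 24 of TUBB2A and 15 of 30 of CCBL1. In AFAP1L1 it was 0 of 18, in ARHGAP35 1 of 18 and in HSPG2 11 of 61. At most 13 of the SNPs kept apart lay within 100 bp in OAS2 and 8 in TUBB2A, as in HSPG2. In AFAP1L1, ARHGAP35 and CCBL1 it was 2, 2 and 3.

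Partners of perlecan were described from lists of genes. Of 35 basement membrane genes 23 were in the table. In all, 136 of 270 tested SNPs showed AI, which is 50.4% beside 38.0% of all tested SNPs, 115 with the reference allele higher, and the median share was 0.518. Depth was not matched between this list and the table, which had a mean of 176 reads per SNP. COL4A1, a chain of the collagen IV network, showed AI at 16 of 20 SNPs, at 2076 ± 404 reads per SNP. LAMC1, a laminin chain, showed AI at 12 of 24, and FN1, fibronectin, at 5 of 23.

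Heparan sulfate chains are built and trimmed by a further set of enzymes. Of 27 such genes, 11 were in the table, with AI at 10 of 43 SNPs (23.3%, beside 38.0% of all tested SNPs), 5 in each direction, and a median share of 0.5. NDST1, which starts the sulfation of the chains, had AI at 2 of 9 SNPs, EXTL3, a glycosyltransferase, at 2 of 6, and SULF2, an extracellular sulfatase, at 0 of 8. The other heparan sulfate proteoglycans had 6 of 13 genes in the table and AI at 9 of 28 SNPs (32.1%), 7 with the reference allele higher. Among them SDC4, a syndecan, had AI at 4 of 5 SNPs, NRP1, a co-receptor, at 3 of 6 and TGFBR3, betaglycan, at 0 of 11. No difference between lists was tested.

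Ligands and receptors of perlecan had 12 of 27 genes in the table. AI was found at 35 of 94 SNPs (37.2%, beside 38.0% of all tested SNPs), 30 with the reference allele higher. LRP1 had AI at 5 of 18 SNPs, ITGAV at 5 of 18 and PDGFRA at 5 of 15. Proteases that can cleave perlecan, with their inhibitors, had 8 of 17 genes in the table. Of their 37 SNPs, 23 showed AI (62.2%, beside 38.0% of all tested SNPs), each with the reference allele higher. Over all tested SNPs, 28.9% had AI with the reference allele higher and 9.01% with the alternate allele higher. No difference from these shares was tested. MMP2 showed AI at 6 of 8 SNPs, with a median share of 0.536, and PLAT, the tissue plasminogen activator, at 3 of 6. MMP14 showed AI at 6 of 6 SNPs, with a median share of 0.772, and all 6 held both alleles in every animal.

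The genes whose scaled read totals followed those of HSPG2 most closely over the 18 animals were SUN1, NDST1, DDX17, LPGAT1 and MPRIP. They were selected as the highest of 2009 genes with at least 3 SNPs and 50 reads per SNP, so no P-value is given. Spearman correlations with HSPG2 were 0.895 for SUN1, a protein of the nuclear envelope, 0.866 for NDST1, 0.849 for DDX17, an RNA helicase, 0.845 for LPGAT1, an acyltransferase, and 0.829 for MPRIP, which binds myosin phosphatase. The median over the 2009 genes was 0.133. Summed markers of cell types had Spearman correlations with HSPG2 of 0.602 for endothelium, 0.449 for smooth muscle and pericytes, 0.0630 for fibroblasts and -0.0547 for adipocytes (n = 18 animals each, computed after the values had been seen). These sums held 6, 5, 6 and 8 genes in the same order. They run over SNPs, so genes with many SNPs weigh most. Of the 75 endothelial SNPs, VWF had 33 and CDH5 26. The endothelial sum was lowest in RS905 and highest in RS953 and RS969, at 3633, 5260 and 4947 reads per 1000000 SNP reads. Other animals departed from the order of HSPG2. RS930 had a low endothelial sum of 4071 with HSPG2 at 3471, and RS926 a high one of 4708 with HSPG2 at 2971.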

How the data were processed

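RNA-Seq reads of PRAT from 18 fetuses were aligned to Oar v3.1 by the authors with STAR, and SNPs and genotypes were called with GATK 3.4-46, named in the submitters' notes. The authors deposited raw counts of the reference and alternate allele per SNP and animal, without normalization, for SNPs with 10 or more reads of both alleles in at least 5 animals. The deposited statistic, P-value and share per SNP were not used. Column PS910 was taken as animal RS910. Reads of animals called heterozygous were summed per SNP, and the statistic was 2 times the log likelihood ratio. Heterogeneity was tested with Pearson's chi-square, and per-animal shares with a two-sided sign-flip permutation test, exact under 10 animals. Computations used Python 3.11.15, scipy 1.17.1, R 4.3.3, limma 3.58.1 and edgeR 4.0.16 (trimmed mean of M-values), and were tested on simulated data. Named SNPs were those kept apart, missense, farthest from or nearest to an equal share, deepest, shallowest or next to the minimum of 15 heterozygous animals. Further SNPs were named for heterogeneity between animals or for lying close together. Other genes were named by number of SNPs, likeness and list. Members and lists were chosen with earlier results of these data known. Alternatives covered the test, null share, coverage, animals counted, combination of animals, SNPs sharing reads, scaling and each animal left out.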

Additional observations from a re-analysis of the deposited data

Results flagged for a closer look

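Reads of an allele that the genotype call left out appeared at 3 HSPG2 SNPs in animals left out of the test of AI by their call. The alternative that counted animals whatever their call did include such reads. At 243852567, called homozygous for the alternate allele in all 18 animals, 16.2% of 1781 reads carried the reference allele. Each animal had 8 to 27 such reads, which is 7.62% to 24.3% of its reads, with a mean of 16.1% ± 4.84 (SD, n = 18). At 243838656, 3.85% of 1663 reads carried the alternate allele in the 5 animals called homozygous for the reference allele. At 243838590 RS917 was called homozygous for the reference allele with 22 alternate reads of 314, which is 7.01% (95% Wilson interval 4.67% to 10.4%, counting error only). For comparison, 0.0713% of reads at homozygous calls of the 50 remaining SNPs were of the other allele. The cause was not tested.

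At the 27 SNPs with 4 to 10 heterozygous animals, no animal's share stood farther from the others than Dixon's 95% value allows, where chance gives about 5% of groups.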

How the results depend on the processing

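Of 136 recomputed values, 128 stayed within 1.5 times a count or 1 SD between animals of a share or level, 8 moved farther and 0 changed direction. Part of this was fixed in advance. The median shares cannot change with the test, the null share or the adjustment, and a change of direction was defined for shares only. Within these bounds SNPs with AI fell from 36 to 25 with the F test and to 27 with the median share as null. Of the 27, 24 were above this null and 3 below. With 1 SNP, the deepest, kept per run of SNPs less than 100 bp apart, AI was found at 19 of 36 SNPs (33.9% of the table), all 19 with the reference allele higher, heterogeneity at 3 (14.3% of the table), and the single SNP left of those kept apart had a share of 0.867. Fewer SNPs were tested by construction. At an unadjusted P-value under 0.05 heterogeneity was found at 13 SNPs (29.5% of the table). With 13 or more heterozygous animals as the minimum, 15 SNPs were kept apart. Leaving out each animal in turn gave 31 to 36 SNPs with AI, 31 to 36 with the reference allele higher, 3 to 8 with heterogeneity, a median share of 0.890 to 0.895 for the SNPs kept apart and 0.526 to 0.530 for the others. Heterogeneity was lowest without RS947, at 3, and was 4 without RS943, and the cause was not tested. Without the 11 SNPs that hold both alleles in every animal, an alternative chosen after seeing the data, AI was found at 25 of 50 SNPs (34.3% of the table). The likelihood ratio test on summed reads treats animals as 1 source, genotypes came from the same RNA reads, and SNPs within a read length repeat the same molecules. The alignment itself was taken as given.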

Other observations

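Markers of the cell types that PRAT can hold are given beside the 38.0% of all tested SNPs with AI, and no difference between lists was tested. Of the adipocyte markers, 8 of 15 genes were in the table, with AI at 20 of 30 SNPs (66.7%), 16 with the reference allele higher. Their median share was 0.510, nearer to equality than the 0.519 of all tested SNPs. The test calls more SNPs at higher depth, and depth was not matched between lists and table. UCP1 had a mean of 10468 reads per SNP and ADIPOQ 10812, beside 176 over all SNPs. UCP1 showed AI at 4 of 5 SNPs and ADIPOQ at 11 of 13, and DIO2, a deiodinase of brown fat, at 0 of 3. Endothelial markers had 6 of 10 genes in the table and AI at 31 of 73 SNPs (42.5%), with CDH5, the cadherin of endothelial junctions, at 16 of 26, VWF at 9 of 33 and TIE1 at 2 of 3. Smooth muscle and pericyte markers had 5 of 9 genes and AI at 5 of 27 SNPs (18.5%), with MYH11, smooth muscle myosin, at 3 of 8, CSPG4 at 0 of 9 and NOTCH3 at 0 of 4.

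Fibroblast markers had 6 of 7 genes in the table and AI at 33 of 49 SNPs (67.3%), with a median share of 0.525. Depth was not matched here either, and COL3A1 had a mean of 3048 reads per SNP. DCN, the proteoglycan decorin, showed AI at 9 of 9 SNPs with a median reference share of 0.830, and 5 of the 9 held both alleles in every animal. COL3A1 had AI at 9 of 13 SNPs, 5 with the reference and 4 with the alternate allele higher, and PDGFRA, also among the receptors above, at 5 of 15. Blood cell markers had 2 of 7 genes and AI at 2 of 9 SNPs (22.2%), CSF1R with AI at 2 of 5 SNPs and CD163 at 0 of 4, and STAR, the only adrenal marker listed, had AI at 1 of 4.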
